A study of Mus musculus with 6 samples.

Results

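Pigment cell genes and the gene for KIT ligand were followed through the start of hair regrowth in mouse dorsal skin, in melanocytes and in the cells around them. The 10 genes were taken by symbol from the 32285 genes of the feature lists, and all 10 symbols were found, each once. Mitf (ENSMUSG00000035158) and Sox10 (ENSMUSG00000033006) encode transcription factors of the pigment lineage. Kit (ENSMUSG00000005672) and Ednrb (ENSMUSG00000022122) encode receptors on melanocytes, and Kitl (ENSMUSG00000019966) encodes the ligand of KIT. Dct (ENSMUSG00000022129), Tyr (ENSMUSG00000004651) and Tyrp1 (ENSMUSG00000005994) encode enzymes of melanin synthesis, and Pmel (ENSMUSG00000025359) and Mlana (ENSMUSG00000024806) encode proteins of the melanosome.

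Hair pigment is made by melanocytes of the follicle, which are renewed in each hair cycle from melanocyte stem cells held in the bulge and hair germ. MITF, acting with SOX10, switches on the genes of melanin synthesis, in which TYR carries out the limiting step and DCT and TYRP1 modify later intermediates, while PMEL forms the fibrils on which melanin is laid down. KIT ligand made by neighbouring keratinocytes and stromal cells keeps KIT-bearing melanocytes alive and draws them to the growing hair bulb, and endothelins act on the same cells through EDNRB. Mice of the FVB strain are albino through a mutation in Tyr, so the transcripts counted here do not lead to visible melanin.

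Dorsal skin of wildtype male FVB mice aged p55 to p57 was shaved and waxed, and cells were taken at 0 h, after 4 h and 16 h, and on days 2, 4 and 6 (2 d, 4 d, 6 d) for droplet single-cell RNA-seq with the 10x Genomics 3′ chemistry. Each time point is 1 library, in which cells of 2 mice were mixed in equal numbers, so their cells are not separable by mouse and 2 time points cannot be tested against each other. After quality limits and removal of predicted doublets, 50503 cells were analysed, from 6520 at 0 h to 11032 at 4 d, and the libraries held 72634390 to 112370376 UMIs. Of the 60599 distinct barcodes, 430 were found in more than 1 library, and 6 melanocytes carried such a barcode. A level is given below as CPM, the UMIs of a gene per 1000000 UMIs summed over the cells of a class in a library, with an exact Poisson 95% interval, and a share of cells with an exact Clopper-Pearson interval. These intervals cover counting error only.

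The 580 melanocytes were a single cluster found with the 10 genes kept out of the clustering and named melanocyte-like from other markers. The other classes below are likewise marker-named clusters rebuilt from the counts. In time order, melanocytes numbered 28, 90, 77, 50, 270 and 65, with 68855 to 1660236 UMIs in all per library. This was 0.429% of the cells at 0 h and 2.45% at 4 d, with 0.578 to 1.25% at the other times. Of the markers not under study, Gpnmb, which encodes a melanosomal glycoprotein, was at 563 to 1215 CPM and Mcoln3 at 276 to 563 CPM in every library, whereas Syt4 and Kcnj13 were at or near 0. Other naming markers varied with time, Trpm1 from 14.5 to 1827 CPM, Ptgds from 552 to 7632, Slc45a2 from 30.6 to 456 and Tspan10 from 0 to 119. All 8 mast cell markers were at 0 UMIs in the melanocytes of every library, which bears on Kit because mast cells also carry it. The 10 keratinocyte markers summed to 726 to 2745 CPM in melanocytes and to 1121 to 2716 CPM in T cells. The 7 Schwann cell markers summed to 218, 490, 344, 114, 149 and 149 CPM in time order, against 352, 286, 238, 222, 165 and 352 CPM in T cells. They were thus above the T cell sum at 4 h and 16 h only, and Cdh19 among them was at 0 UMIs in T cells of every library. Their part in the results was not tested.

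Promoter sequence is shown first because it sets the genes of melanin synthesis beside their transcription factor. MITF binds an E-box with a flanking T, written TCATGTG, which is the core of the M-box of pigment genes. In RefSeq promoter windows of the build GRCm38.p6, which start 250 bases before a transcription start, TCATGTG was searched on both strands. Windows were given for 7 of the 10 genes, and for none of Sox10, Pmel and Mlana. Dct held the motif at 2 places, and Tyr and Tyrp1 at 1 place each, while none of the windows of Mitf, Kit, Kitl and Ednrb held it. Of all 32851 windows, 1068 (3.251%) held it. The 4 matches are shown with 10 bases on each side, read on the strand that spells TCATGTG, which is in capitals.

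Dct, chr14:118052462-118052488, + strand, 232 bases before the start: tttattgggcTCATGTGtcccagccaa
Dct, chr14:118052381-118052407, − strand, 151 bases before the start: gcacttagggTCATGTGctaacaaaga
Tyr, chr7:87493518-87493544, − strand, 22 bases before the start: aaaaagttagTCATGTGctttgcagaa
Tyrp1, chr4:80834156-80834182, + strand, 47 bases before the start: ggggagggagTCATGTGctgcctagta

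Of these matches, the nearer one of Dct and those of Tyr and Tyrp1 shared the longer run GTCATGTGCT, chosen after the sequences were seen, which 51 of the 32851 windows (0.1552%) held on either strand. The 250 bases before the start are given for Dct and Tyr with the matches in capitals, where the farther match of Dct appears as its complement CACATGA. The window before the last of the 3 Mitf starts, the start of the melanocyte form, is shown beside them because it held no M-box but 1 match to TGACGTCA, the element through which cyclic AMP acts. That element was in 508 of the 32851 windows (1.546%). All 3 windows read 5′ to 3′ in the direction of the gene.

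Dct, chr14:118052247-118052496, − strand: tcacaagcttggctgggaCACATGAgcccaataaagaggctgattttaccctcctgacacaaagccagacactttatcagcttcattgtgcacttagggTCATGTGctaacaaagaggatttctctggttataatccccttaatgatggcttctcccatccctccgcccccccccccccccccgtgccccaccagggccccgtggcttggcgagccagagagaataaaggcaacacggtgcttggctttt
Tyr, chr7:87493513-87493762, − strand: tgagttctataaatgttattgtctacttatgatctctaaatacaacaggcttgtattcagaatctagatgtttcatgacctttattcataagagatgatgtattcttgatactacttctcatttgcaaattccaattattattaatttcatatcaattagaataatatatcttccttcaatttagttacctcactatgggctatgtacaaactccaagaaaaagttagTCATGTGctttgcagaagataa
Mitf, chr6:97991533-97991782, + strand: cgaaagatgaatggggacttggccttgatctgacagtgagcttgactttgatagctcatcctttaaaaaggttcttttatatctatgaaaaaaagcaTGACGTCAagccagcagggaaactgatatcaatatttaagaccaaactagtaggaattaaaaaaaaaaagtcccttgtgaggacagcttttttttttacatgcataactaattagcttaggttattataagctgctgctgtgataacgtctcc

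A match of these letters is a description of the window and not a site shown to be used. The UMI counts come from the 3′ ends of transcripts, so transcripts from the 3 Mitf starts cannot be told apart in what follows.

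The genes of melanin synthesis and of the melanosome were lower in melanocytes over the first 16 h than from 2 d on, with the smallest step for Dct. Pmel, Mlana, Tyr and Tyrp1 rose over the time course, whereas the lineage factors Mitf and Sox10, the receptors Kit and Ednrb and the enzyme gene Dct did not pass the test. Counts were summed over the melanocytes of each library and fitted with edgeR's quasi-likelihood F test on a spline of hours, and trends are given as log2 changes from 0 h to 6 d on its linear component. The p-value tests all 3 terms of the spline together, so a call means any change over time. The trend is not tested by itself, and its sign alone sets whether a call counts as higher or lower. Where a trend is said below to be called or not, the call is that of the joint test. Of the 10 genes, 9 passed the filter on low counts and 4 of them were called (FDR 0.05, p-values adjusted by Benjamini and Hochberg's method across every gene in the fit), all 4 higher with time. Over all 4414 genes tested in melanocytes, 110 (2.49%) were called higher and 111 (2.51%) lower, 5.01% in all. Under the alternatives named below the share called was 14% on the scale of log2(hours + 1), 10.8% on the rank of the time points, 1.65% with a linear term alone, 1.88% by DESeq2 and 1.75% without the filter. Without 1 library it was 1.92% (0 h), 3.36% (4 h), 3.18% (16 h), 5.07% (2 d), 3.28% (4 d) and 5.28% (6 d). The median trend was 2.12 over the 9 genes and -0.006 over all genes tested.

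In time order, Pmel stood at 595, 1047, 274, 2429, 8945 and 6801 CPM, and its trend was 4.21 (adjusted p = 0.000528). Mlana stood at 320, 367, 179, 1527, 4647 and 4342 CPM at the same times, with a trend of 4.64 (adjusted p = 0.000126). The 3 later libraries lay above the 3 early ones for both genes with no overlap of their intervals. Their lowest levels were at 16 h, apart from 0 h for Pmel and overlapping it for Mlana. At 16 h the level of Pmel was 0.461 times that at 0 h (0.293 to 0.725), and at 4 d it was 15.0 times that at 0 h (11.1 to 20.9). Mlana at 4 d was 14.5 times its level at 0 h (9.60 to 23.2).

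Tyr, which encodes the limiting enzyme, was close to the limit of detection early, with 6, 4 and 13 UMIs at 0 h, 4 h and 16 h. It was at 87.1, 24.5 and 82.9 CPM in these libraries and at 374, 760 and 543 CPM at 2 d, 4 d and 6 d, with a trend of 4.11 (adjusted p = 9.22e-05). The early and later libraries did not overlap, and the 4 d level was 8.72 times that of 0 h (3.99 to 23.8). Tyrp1 was at 349, 857, 434, 1494, 3018 and 1656 CPM, with a trend of 2.26 (adjusted p = 0.0236). Its 4 h level lay apart from those of 0 h and 16 h, and its 6 d level was 0.549 times that of 4 d (0.505 to 0.596), the lowest such ratio among the 9 genes. The call on Tyrp1 was lost without the library of 0 h (trend 1.85, adjusted p = 0.0787), 16 h (trend 2.00, adjusted p = 0.470) or 4 d (trend 1.76, adjusted p = 0.246), and that on Pmel without 16 h (trend 3.64, adjusted p = 0.115). On the scale of log2(hours + 1) Pmel was not called (trend 3.95, adjusted p = 0.525).

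Dct was present at every time. It was at 2643, 2693 and 2928 CPM at 0 h, 4 h and 16 h, then at 4087, 10465 and 8451 CPM from 2 d on. The first 3 levels did not differ beyond their intervals and the later 3 lay above them, 3.96-fold above 0 h at 4 d (3.42 to 4.61). The trend of 2.12 was not called (adjusted p = 0.135), although it was called on the scale of log2(hours + 1) (trend 2.05, adjusted p = 1.39e-10), on the rank of the time points (trend 2.21, adjusted p = 0.000772) and by DESeq2 (trend 2.12, adjusted p = 0.00477). The size of its step was the smallest of the 5 pigment genes. Dct made up 67.7% of the UMIs of Dct, Pmel, Tyrp1 and Mlana together at 0 h (61.7 to 73.2), 54.3% at 4 h and 76.8% at 16 h, against 42.9%, 38.7% and 39.8% in the later libraries.

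**Figure D1:**
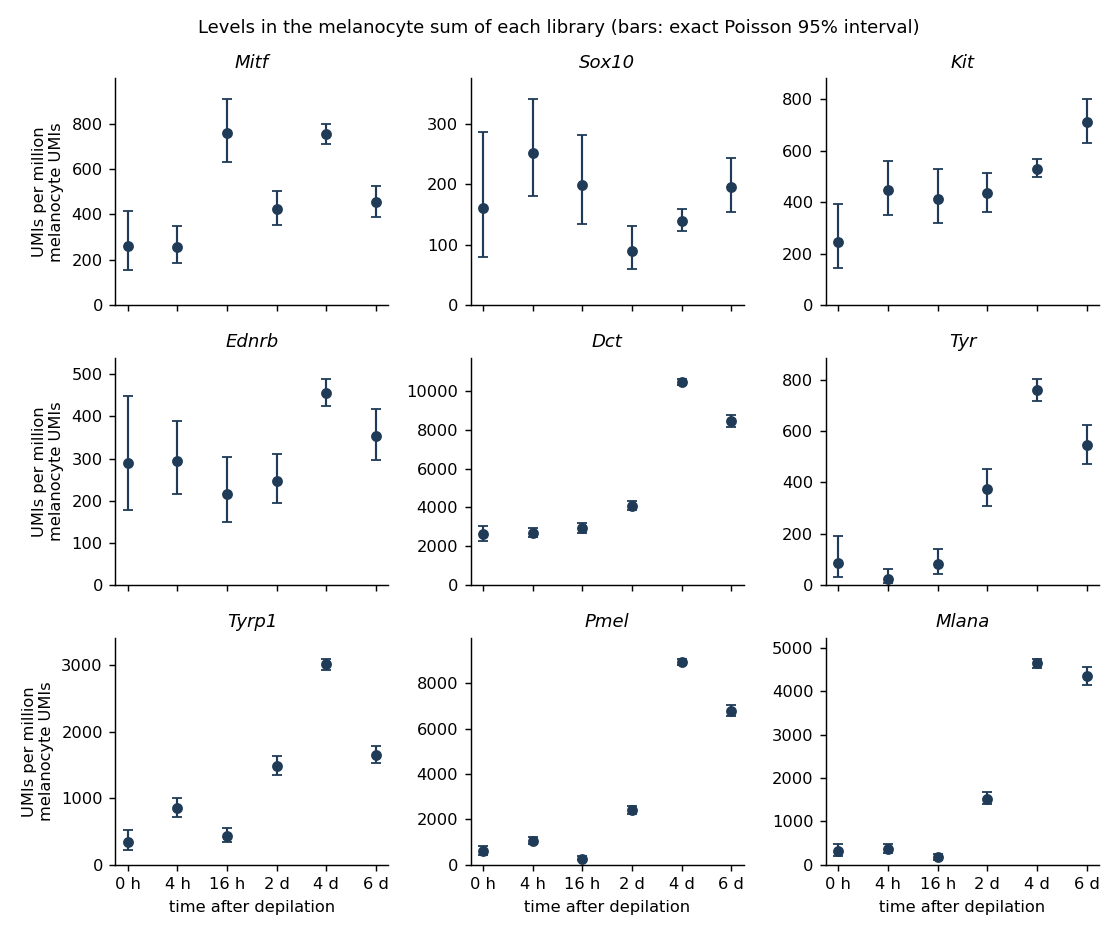
Level of 9 pigment cell genes in the melanocyte sum of each library, in CPM of the melanocyte UMIs, against time after depilation (linear axes from 0, time points spaced evenly and 1 library each). Points are levels and bars exact Poisson 95% intervals. Dct, Tyr, Tyrp1, Pmel and Mlana are lower at 0 h to 16 h than later and highest at 4 d. Sox10 stays between 90.2 and 251 CPM, and Kit is highest at 6 d, at 713 CPM.

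Shares of melanocytes with a UMI were lower early than late for Pmel, Mlana and Tyr, but not throughout for Tyrp1. Early melanocytes were shallower, with medians of 2288, 1800 and 1911 UMIs at 0 h, 4 h and 16 h against 5004, 4451 and 3707 later, so each cell was also thinned to 2000 UMIs and shallower cells were left out (7, 61, 46, 9, 29 and 8 cells). Dct was then detected in 95.2%, 96.6% and 87.1% of early melanocytes and in 98.2 to 100% of later ones. Pmel was detected in 42.9%, 62.1% and 25.8% of early melanocytes and in 73.2%, 95.02% and 89.5% of those of 2 d, 4 d and 6 d. For Tyr the shares were 9.52%, 10.3% and 12.9%, and later 48.8%, 55.6% and 47.4%. Tyrp1 was detected in 33.3%, 75.9% and 48.4% of early melanocytes and in 75.6%, 87.1% and 75.4% of later ones, so that its share at 4 h was no lower than at 2 d and 6 d. The highest share of thinned T cells with a UMI of any of the 10 genes other than Kit was 1.69%, for Dct at 6 d.

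All 5 pigment genes together were seen in few early melanocytes. Without thinning they were found in 0 of 28 cells at 0 h (at most 12.3%), in 3.33% at 4 h and in 1.30% at 16 h. At 2 d, 4 d and 6 d the share was 44.0%, 64.1% and 46.2%. At 16 h, 36.4% of the melanocytes held UMIs of at most 1 of the 5 genes, against 0 of 65 at 6 d.

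**Figure D2:**
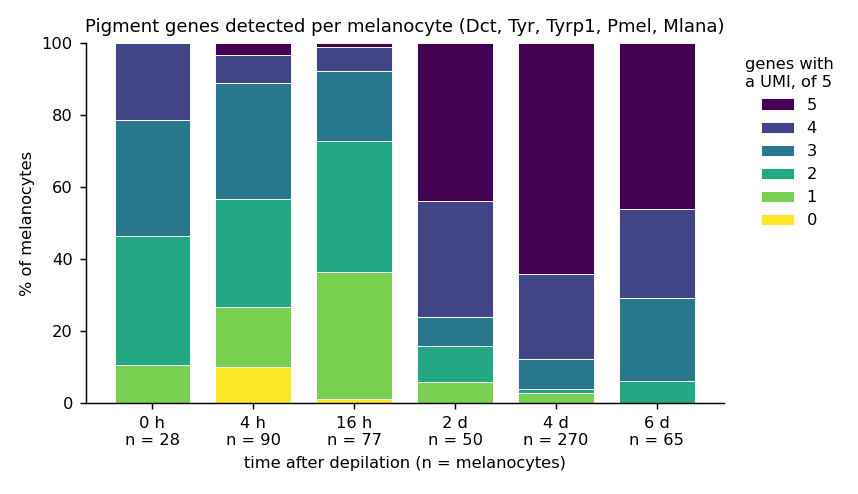
Share of melanocytes of each library, in percent, by how many of Dct, Tyr, Tyrp1, Pmel and Mlana had at least 1 UMI in the cell (unthinned, 28 to 270 cells a library). Cells with all 5 genes make up 64.1% at 4 d and at most 3.33% in the 3 early libraries, whose cells were shallower.

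Levels also differed between cells of the same time. At 4 d the median melanocyte had 87.6 Dct UMIs per 10000 UMIs, with quartiles of 61.6 and 124, and 56.4 Pmel UMIs, with quartiles of 17.9 and 106. The 27 cells with the most UMIs of a gene held 31.5% of the Dct UMIs, 39.9% of those of Pmel and 44.5% of those of Mlana. The 80 melanocytes of 4 d with at least 2 UMIs of cycling markers had 8942 CPM of Pmel and the 190 others 8946 CPM, and Dct was at 10220 and 10654 CPM. Mitf was lower in the cycling cells, at 621 CPM (565 to 681) against 856 CPM (797 to 917). Cycling cells were deeper, with a median of 8408 UMIs against 3875. After thinning, 15.8% of the 4 d melanocytes were called cycling (11.4 to 21.0), against 3.23 to 9.52% in the other libraries. Those shares rest on 1 to 3 cells each, and all their intervals overlapped that of 4 d. The same rule called 29.3% of thinned T cells at 0 h and 47.8% at 4 d. Of the 10 cycling markers 8 were tested over the time course, and all 8 rose by edgeR, against 2.49% of all genes, while 5 were called by DESeq2.

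Mitf, the lineage factor, did not follow the pigment genes. In time order it was at 261, 257, 759, 424, 754 and 454 CPM. The level at 16 h, 2.90 times that at 0 h (1.76 to 5.07), came from 77 cells in which Pmel, Mlana and Tyr were still low, and it did not differ from 4 d beyond counting error. The trend of 0.79 was not called (adjusted p = 0.535). Sox10 was at 160, 251, 198, 90.2, 139 and 195 CPM, and all neighbours in the order of its levels overlapped. Levels farther apart in that order did not all overlap. The 2 d interval (59.5 to 131) lay below those of 4 h, 16 h and 6 d, and the 4 d interval (122 to 158) below that of 4 h (180 to 340). The trend of Sox10 was -0.15 (adjusted p = 0.748), with a sign that turned under several alternatives.

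Of the 9 genes, Kit alone had its highest level at 6 d. It was at 247, 447, 415, 434, 531 and 713 CPM, with a trend of 1.09 (adjusted p = 0.557). The 6 d level was 1.34 times that of 4 d (1.17 to 1.54), and the level of Sox10 was 1.40 times (1.07 to 1.82), whereas Mitf, Ednrb and the 5 pigment genes were at 0.549 to 0.934 times their 4 d levels. Ednrb was at 290, 294, 217, 247, 455 and 354 CPM, with 4 d highest, apart from every time but 0 h, and a trend of 0.70 (adjusted p = 0.513). Kitl itself was scarce in melanocytes, with 3, 7, 0, 1, 26 and 5 UMIs. The 26 UMIs at 4 d were in 11 of 270 cells, with 13 of them in 1 cell, and 22 of the 26 were in the cycling cells.

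Other genes of pigment cells were looked up by list. In melanocytes, 3 UMIs of a gene make 43.6, 18.4 and 19.1 CPM at 0 h, 4 h and 16 h. Early values of listed genes at or under these levels therefore rest on at most 3 UMIs. Of 21 melanosome and pigment genes, 11 were tested in melanocytes. By edgeR 4 were called higher, against 2.49% of all genes tested, and 7 were not called. DESeq2 called 3 of the 11, against 1.88% of all genes tested. Slc24a5, an ion exchanger of the melanosome, was at 29.0, 91.8, 140, 361, 1410 and 1187 CPM (trend 4.76, adjusted p = 1.68e-05), and Rab38, a GTPase that brings enzymes to the melanosome, at 43.6 CPM at 0 h and 215 at 6 d (trend 3.50, adjusted p = 0.00153). Oca2, a melanosomal channel gene, had no UMI at 0 h, 4 h and 16 h and was at 169 CPM at 4 d, and Gpr143, a melanosomal receptor gene, was at 157 CPM at 4 d and at most 18.4 CPM before 2 d. The transport genes Mlph (174 to 270 CPM) and Myo5a (237 to 479 CPM) were not called.

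Of 20 regulators of pigment cells, 13 were tested, 1 was called higher and 2 lower by edgeR, and 0 were called by DESeq2 (5.01% and 1.88% of all genes tested). Id3, an inhibitor of helix-loop-helix factors, was called, with 508 CPM at 0 h, its lowest level of 144 CPM at 2 d, and 602 CPM at the end (adjusted p = 0.0397). Nr4a1, an immediate early gene, was at 189, 392 and 453 CPM in the early libraries and at 43.4 to 74.1 CPM later (trend -2.53, adjusted p = 0.0207). Tfap2b was at 30.1 and 30.7 CPM at 2 d and 4 d and at 141 to 172 CPM in the other 4 libraries (adjusted p = 0.00707). Pax3, which acts with SOX10 upstream of Mitf, was at 450 to 989 CPM and was not called (adjusted p = 0.931).

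Of 20 genes of KIT signalling and its feedback, 10 were tested and 0 were called by edgeR (5.01% of all genes tested). Of these 10, 0 had an unadjusted p under 0.05 and 0 were called by DESeq2 (1.88% of all genes tested). Among those with the highest levels were Spred1 (76.5 to 153 CPM) and Pik3r1 (59.0 to 171 CPM). Of 29 ligands and receptors known from melanocytes, 7 were tested and 2 were called by edgeR, both higher, against 2.49% of all genes, and 1 by DESeq2. Mc1r, the melanocortin receptor that raises cyclic AMP, had no UMI at 0 h and 4 h and was at 19.1, 150, 176 and 264 CPM at the later times (adjusted p = 2.81e-05). Met, the receptor of hepatocyte growth factor, was at 6.38 to 14.5 CPM early and at 105 CPM at 4 d (trend 3.62, adjusted p = 0.00221). The 10 keratinocyte markers were tested as a check on RNA of other cells. Krt1 and Krt10 were called higher and Dsp and Sfn lower by edgeR, and 1 of the 10 was called by DESeq2. The edgeR calls were 40% of these markers, against 5.01% of all genes tested, and DESeq2 called 1.88% of all genes tested. Of the 7 Schwann cell markers 2 were tested and 0 were called by edgeR, with 1 at an unadjusted p under 0.05 and 0 called by DESeq2. The part of such RNA in the results above was not tested.

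Kitl was found in the cells around the melanocytes, among them the inner root sheath (IRS) and matrix cells of the new hair bulb. These cells were absent before 2 d, and they carried Kitl at 362 CPM (291 to 446) at 2 d, 102 CPM (94.2 to 110) at 4 d and 256 CPM (228 to 286) at 6 d. The 2 d value came from 88 UMIs in 19 cells, that of 4 d from 627 UMIs in 622 cells and that of 6 d from 308 UMIs in 136 cells. The 3 intervals did not overlap, and the level at 6 d was 2.51 times that at 4 d (2.18 to 2.88). With 2 d to 6 d alone, no time course could be fitted for this class.

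The outer root sheath cluster led by Col14a1 (ORS Col14a1 cluster) had Kitl at 68.2, 163, 156, 198, 54.4 and 56.8 CPM in time order. The level at 2 d was 2.91 times that at 0 h (1.76 to 5.15), and those of 4 h, 16 h and 2 d lay above those of 0 h, 4 d and 6 d with no overlap. The trend of -1.55 was not called (adjusted p = 0.224, with 2.06% of 9279 genes called), although it was called without the library of 0 h (trend -2.02, adjusted p = 0.00295, 7.19% of genes called) or 4 h (trend -1.34, adjusted p = 0.0142, 5.09%). Few cells stood behind the early values, 33 at 0 h, 41 at 4 h and 75 at 16 h against 1619 at 4 d.

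In the bulge cluster led by Cd34, a marker of hair follicle stem cells, Kitl was at 74.9, 32.8, 81.4, 48.7, 55.5 and 54.0 CPM. Its lowest level was at 4 h, 0.438 times that at 0 h (0.293 to 0.640). An unnamed follicle cluster led by Cpa4 and Anxa3 (cluster 11) was empty at 0 h, with 234 cells at 4 h and 145 cells at 16 h, so the clusters of 0 h and 4 h may not hold the same cells. Kitl was at 48.5 CPM there at 4 h, and in a sum of the bulge Cd34 and ORS Col14a1 clusters with unnamed follicle clusters 10 and 11 the 4 h level was 0.790 times that of 0 h (0.618 to 1.009), an interval that includes no change. In the bulge Cd34 cluster Kitl was not called (trend -0.38, adjusted p = 1.00, with 0.482% of 9951 genes called). Basal cells of the interfollicular epidermis (IFE.B) had 41.4, 62.6, 37.0, 41.5, 24.4 and 57.2 CPM, from 313 to 1945 UMIs. There 4 h was 1.51 times 0 h (1.40 to 1.63), and the difference from the bulge was not tested. In IFE.B Kitl was not called (trend -0.20, adjusted p = 1.00), with 0 of 12927 genes called by edgeR, 80 at an unadjusted p under 0.05 and 14 called by DESeq2.

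Levels of Kitl were lower in suprabasal epidermis (IFE.SB), at 4.70 to 14.3 CPM, and in basal cells of the upper follicle (uHF.B), at 6.84 to 18.4 CPM. T cells, which should lack it, held 11 Kitl UMIs in all 6 libraries. Cells of the dermal papilla and fibroblast class were few, with Kitl at 285 CPM at 2 d (136 to 523, from 10 UMIs in 8 cells), an interval that overlaps that of IRS and matrix cells, and at 13.7 CPM at 4 d (5.02 to 29.8, from 6 UMIs in 125 cells).

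**Figure D3:**
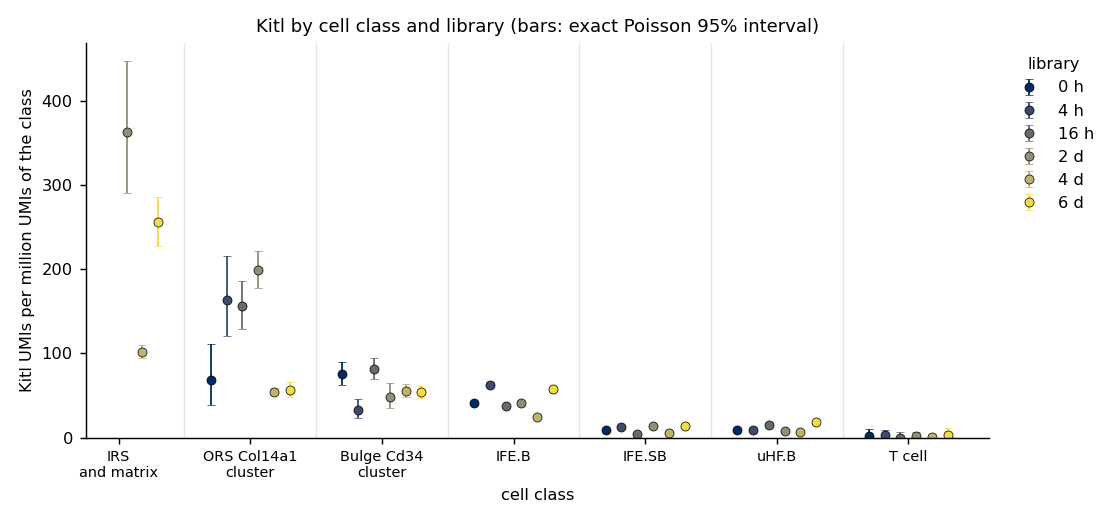
Kitl in CPM of the UMIs of the class (linear axis from 0), by cell class and library, with exact Poisson 95% intervals. IRS and matrix cells (from 2 d on) reach 362 CPM and the ORS Col14a1 cluster 198 CPM, both at 2 d, while IFE.SB and uHF.B stay at or under 18.4 CPM and T cells lie near 0.

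Thinned to 2000 UMIs a cell, 47.4%, 15.3% and 24.4% of the IRS and matrix cells had a Kitl UMI at 2 d, 4 d and 6 d. In the ORS Col14a1 cluster the share was 18.2% at 0 h, 28.3% at 2 d and 9.96% at 4 d, and in IFE.B it was 4.72 to 11.3%. The thinned shares therefore put 2 d highest in both follicle classes, as the CPM did. At 6 d the IRS and matrix cells with a UMI of an IRS keratin had 239 CPM of Kitl (211 to 270) and the 18 cells without one 457 CPM (329 to 617). At 4 d the order was the other way, with 103 CPM in 603 cells and 30.9 CPM from 3 UMIs in 19 cells. At 2 d the 10 cells with an IRS keratin UMI had 354 CPM (261 to 469) and the 9 without one 373 CPM (266 to 508).

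The receptor Kit was low in keratinocytes and was also found in T cells and other lymphocytes. IFE.B held 17 Kit UMIs in all libraries and Langerhans cells 2. IRS and matrix cells reached 6.64 CPM at 6 d (2.87 to 13.1, from 8 UMIs), an interval that overlaps that of T cells at 6 d. T cells had Kit at 3.62, 69.6, 39.9, 43.8, 25.9 and 12.9 CPM, with a UMI in 2 of 208 cells at 0 h and 39 of 344 at 4 h. Of the 166 T cells with a Kit UMI, 0 had a UMI of Dct, Tyr, Tyrp1, Pmel, Mlana or Sox10, and Mitf was not counted. Such UMIs were also rare in T cells without Kit. They were in 0 of these cells at 0 h, 4 h and 16 h, 2 of 721 at 2 d, 19 of 594 at 4 d and 4 of 225 at 6 d. The T cell intervals at 4 h (52.1 to 91.0 CPM) and 6 d (5.57 to 25.4 CPM) did not overlap. A smaller lymphocyte cluster led by Gzmc and Icos had Kit at 33.3, 62.8, 15.3, 21.8 and 17.3 CPM from 4 h to 6 d. These values rest on 2 to 7 UMIs each, and its 6 cells at 0 h had 0. Kit was not called in T cells (trend -1.30, adjusted p = 1.00, with 0.0564% of 7089 genes called), and the sign of its trend turned without the library of 4 h (trend 0.08).

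Mitf was also found outside the pigment lineage, in the resting bulge. In the bulge Cd34 cluster it was at 160 CPM (141 to 181) at 0 h and then at 20.9, 50.1, 23.3, 18.3 and 15.3 CPM. The 0 h library lay above all later ones, and the 4 h level was 0.131 times that of 0 h (0.0815 to 0.201), while melanocytes were at 0.983 times (0.554 to 1.81). Cluster 11, absent at 0 h, had Mitf at 3.39 CPM from 3 UMIs at 4 h, and in the sum that includes it the 4 h level was 0.105 times that of 0 h (0.0710 to 0.150). In a bulge cluster led by Sncg the levels were 146, 21.9, 64.6, 51.1, 63.3 and 45.0 CPM, and in uHF.B 19.2, 3.76, 12.6, 8.64, 7.66 and 4.30 CPM. All 3 classes were lower at 4 h than at 0 h and 16 h. IFE.B was at 1.48 to 5.18 CPM.

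At 0 h, 146 of 284 cells of the bulge Cd34 cluster had a Mitf UMI, and 26.8% did after thinning, against 2.61 to 11.8% later and at most 1.55% of thinned T cells. Of the 146 cells with Mitf, 1 (0.685%) had a UMI of another pigment cell gene, as had 1 of the 138 cells without Mitf (0.725%). The trend of -2.73 in this cluster was not called (adjusted p = 0.355), and was called on the scale of log2(hours + 1) (trend -3.04, adjusted p = 0.00217, 11.8% of genes called), on the rank of the time points (trend -3.13, adjusted p = 0.0147, 3.62%) and without the library of 4 h (trend -3.05, adjusted p = 7.76e-09, 4.62%) or 2 d (trend -2.79, adjusted p = 0.0144, 1.64%).

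**Figure D4:**
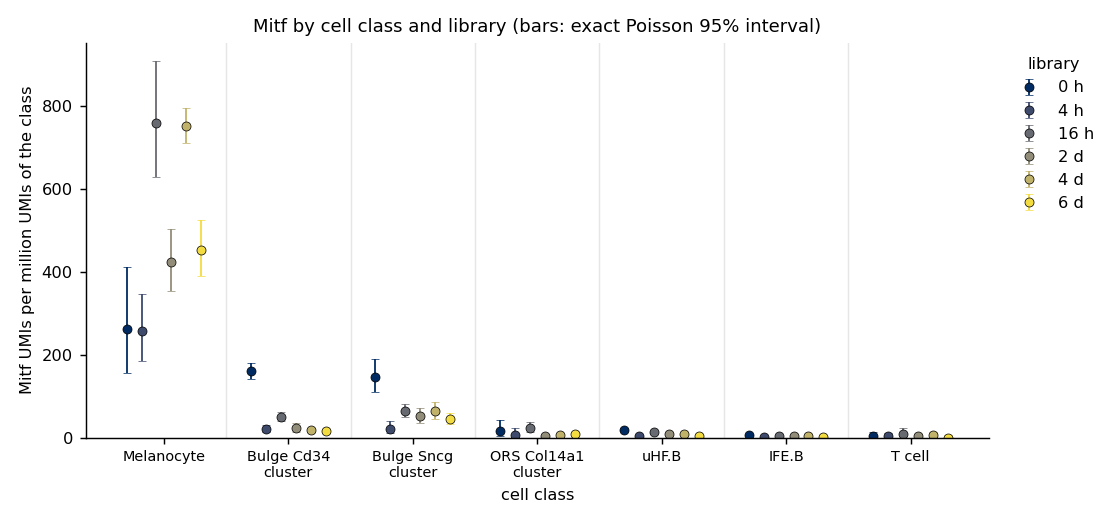
Mitf in CPM of the UMIs of the class (linear axis from 0), by cell class and library, with exact Poisson 95% intervals. Melanocytes reach 759 CPM at 16 h, and the bulge clusters led by Cd34 and Sncg are at 160 and 146 CPM at 0 h and at or under 64.6 CPM later.

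Dct UMIs were more frequent in IRS and matrix cells than in the other 8 classes of keratinocytes and immune cells compared. Free RNA from broken cells gives a few UMIs of abundant genes in cells that do not express them. Cells without a UMI of Tyr, Tyrp1, Pmel, Mlana or Sox10 were taken, which does not remove free RNA of Dct itself, whose part was not tested. Of these, 107 of 601 IRS and matrix cells at 4 d (17.8%, 14.8 to 21.1) and 22 of 134 at 6 d (16.4%, 10.6 to 23.8) had a Dct UMI. T cells had 0.972% and 1.72%, the ORS Col14a1 cluster 3.31% and 2.08%, and IFE.B 1.63% and 0.645%. The IRS and matrix cells were deeper, with medians of 9142 UMIs at 4 d and 7824 at 6 d against 2224 and 2489 in T cells and 7981 and 7718 in the ORS Col14a1 cluster. After thinning, 4.07% and 6.11% of all IRS and matrix cells had a Dct UMI, against 0.258% and 1.69% of T cells. The 6 d shares come from 131 and 177 thinned cells, and their difference was not tested. Thinned shares of the other classes are not given here.

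The mixture of pigment transcripts was compared as well. Dct made up 67.9% of the UMIs of Dct, Pmel, Tyrp1 and Mlana in the IRS and matrix cells of 4 d (62.3 to 73.2) and 92.9% at 6 d (76.5 to 99.1), against 38.7% and 39.8% in the melanocytes of the same libraries and 45.9% in IFE.B at 4 d (37.9 to 54.0). Shares as high were seen in other follicle classes, at 66.7% in the companion cluster at 4 d (53.7 to 78.0) and 70.3% in the bulge Cd34 cluster at 6 d (57.6 to 81.1), so a high Dct share was not particular to IRS and matrix cells. Cells of the dermal papilla and fibroblast class had Dct at 57.0 CPM and Pmel at 45.6 CPM at 4 d, from 25 UMIs in 6 and 20 UMIs in 4 of 125 cells. Whether droplets that held both a melanocyte and a matrix cell add to these counts was not tested beyond the removal of predicted doublets.

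**Figure D5:**
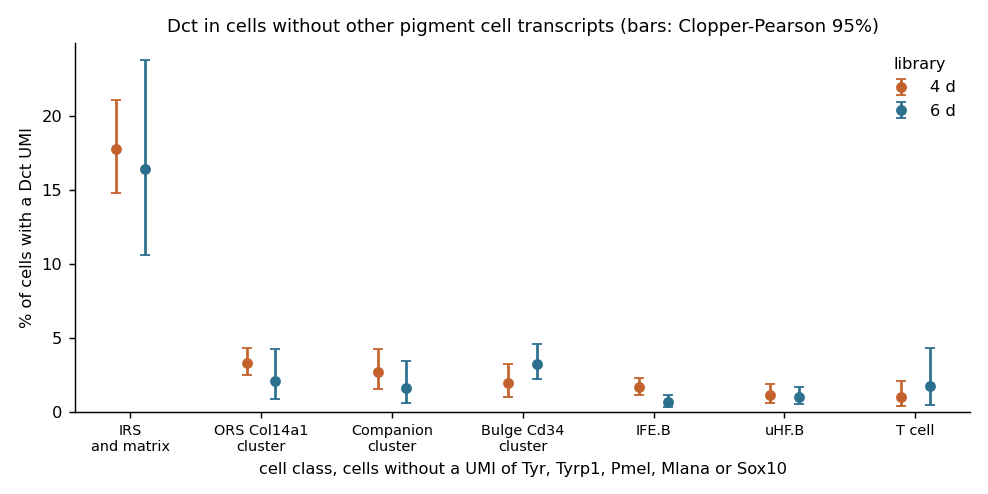
Share of cells with a Dct UMI, in percent with Clopper-Pearson 95% intervals, among cells that had no UMI of Tyr, Tyrp1, Pmel, Mlana or Sox10, by cell class at 4 d and 6 d (unthinned). IRS and matrix cells lie at 17.8% and 16.4% and the other 6 classes at or under 3.31%.

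Ligands of EDNRB were looked up in the same cells, among 13 ligand genes. In the bulge Cd34 cluster Edn2 was at 4.41, 2.73, 2.41, 10.6, 120 and 91.2 CPM and rose over time (trend 5.60, adjusted p = 0.00662). Edn2 was the only called ligand of the 6 tested there, with 0.482% of 9951 genes called. In the sum of bulge and ORS clusters named above it was not called (trend 4.64, adjusted p = 0.0996). In the ORS Col14a1 cluster Edn2 was at 17.1, 13.1, 21.7, 18.9, 63.3 and 96.9 CPM and was not called (trend 2.46, adjusted p = 0.0589). Cxcl12 was at 85.3, 19.6, 91.9, 26.2, 6.86 and 13.6 CPM there and was called lower (trend -3.19, adjusted p = 0.0433, with 2.06% of genes called). With 33 cells in this cluster at 0 h and 1619 at 4 d, Cxcl12 was not called in the sum (trend -2.36, adjusted p = 0.180). None of the 13 ligands was called outside the bulge Cd34 and ORS Col14a1 clusters. Edn1 was at 33.0 CPM in IFE.B at 0 h and at 0.643 to 16.0 CPM later, and Edn3 was at or under 1.18 CPM in each of these 3 classes.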

How the data were processed

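Single-cell libraries of dorsal skin at 6 times post depilation were used, 1 library per time and each a mixture of cells of 2 mice. The authors deposited raw UMI counts per gene and barcode, made with Cell Ranger 6.1.2 on mm10 per the labels, and neither the annotation release nor how intronic reads were counted is given in the sources used here. Barcodes with 500 to 7000 genes and at most 10% mitochondrial UMIs were kept. Predicted doublets were removed by Scrublet score in scanpy 1.11.5 at 0.8% per 1000 barcodes, 4674 in all. Scrublet's own cutoff called 1242 and was not used. Cells were clustered in Seurat 5.3.0 after reciprocal PCA integration (resolution 0.2, and 0.4 for hair follicle cells), with 198 genes, the 10 genes described among them, kept out of the variable genes.

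UMI counts were summed per class and library. Classes with at least 20 cells in every library were fitted in R 4.3.3 with edgeR 4.0.16 (TMM scaling, default filter on low counts, robust quasi-likelihood F test on a natural spline of hours with 3 df, Benjamini-Hochberg FDR of 0.05 over all genes tested), which left 2 residual df. The p-values set the time course against the scatter of 6 libraries around it, not against the spread between mice. Scripts were tested on simulated data. Alternatives were DESeq2 1.42.0, other time scales, filters, doublet settings and thinning, and leaving out each library. Shares were also computed after thinning each cell to 2000 UMIs. Of a listed group, up to 4 called genes with the largest trend were named, or those highest in level where none was called, while Mlph, Myo5a, Pax3, Edn1 and Edn3 were named after their values were seen. The genes and lists were chosen with earlier results of these data known. Some values are not reported here.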

Additional observations from a re-analysis of the deposited data

Results flagged for a closer look

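The change of Mitf from 0 h to 4 d went in opposite directions in melanocytes and in 4 classes of follicle keratinocytes, picked because they differed from melanocytes. In melanocytes the level at 4 d was 2.88 times that at 0 h (1.82 to 4.88). It was 0.1145 times in the bulge Cd34 cluster (0.0853 to 0.152), 0.434 times in the bulge Sncg cluster (0.282 to 0.661), 0.399 times in uHF.B (0.292 to 0.539) and 0.347 times in an unnamed follicle cluster (0.146 to 0.796). With 1 library per time point the difference was not tested. Outside these 4 classes, the Mitf trend over the time course was 0.72 in suprabasal cells of the upper follicle and -1.40 in the ORS Col14a1 cluster, neither called.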

How the results depend on the processing

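No paired analysis was possible because each time point is 1 library and the replicate number only names it. With 6 libraries and 28 to 270 melanocytes each, counts of called genes moved widely. Of 162 refits of the 9 melanocyte trends 145 gave the same call and direction, 6 gained a call, 8 lost it and 3 changed sign. Of 108 recomputed folds 105 moved by less than their interval.

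In melanocytes 221 genes were called, against 619 on log2(hours + 1), 477 on ranks, 73 with a linear term alone, 83 by DESeq2, 73 with the same number of cells per library and 94 to 162 without 1 library. Dct was called on log2(hours + 1) (trend 2.05), on ranks (2.21), with a linear term (2.23), by DESeq2 (2.12), without the filter (2.33) and without 0 h (2.10, adjusted p = 0.0105). Pmel lost its call on log2(hours + 1) (3.95), Tyr with a linear term (3.84) and Tyrp1 with a linear term (2.54) and with the same number of cells (2.28). Sox10 changed sign without the filter (0.04), with the doublet rate doubled (0.01) and without 4 h (0.09). Trends without 1 library ranged from 1.76 to 2.11 for Dct, 0.45 to 0.83 for Ednrb, 0.77 to 1.26 for Kit, 0.28 to 1.37 for Mitf, 4.15 to 4.67 for Mlana, 3.61 to 4.52 for Pmel, -0.63 to 0.09 for Sox10, 3.24 to 4.30 for Tyr and 1.76 to 2.78 for Tyrp1. Dct at 6 d over 4 d was 0.853 with the doublet rate doubled and 0.771 with TMM scaling, Pmel was 0.726 with TMM scaling, and the share with Mlana at 4 d exceeded that at 0 h by 36.5 points with thinning to 1000 UMIs.

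In the bulge Cd34 cluster 48 genes were called, against 1176 on log2(hours + 1), 360 on ranks, 166 by DESeq2 and 58 to 1176 without 1 library, with Mitf at -3.04 on log2(hours + 1), -3.13 on ranks and -3.05 to -1.33 without 1 library. In the sum of bulge and ORS cells 0 were called, against 1274, 612 and 530 on those settings and 1 to 2405 without 1 library. Mitf there was called at -3.40, -3.37 and -2.77, and ranged from -3.26 to -1.14, and Kitl from -0.92 to -0.29 without 1 library. In IFE.B 0 were called, against 14 by DESeq2 and 0 to 8 without 1 library, with Kitl from -1.07 to 0.23 (0.18 without 4 h) and Mitf from -0.52 to 0.57 (0.33 without 6 d). In the ORS Col14a1 cluster 191 were called, against 705 on log2(hours + 1), 399 on ranks and 0 to 702 without 1 library, with Kitl from -2.02 to -1.13. Kit in T cells changed sign on log2(hours + 1) (0.90) and ranged from -2.07 to 0.08 without 1 library. The causes were not tested.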

Other observations

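Across 89 sums of UMIs, over 18 classes and up to 6 libraries that share depth within a library, the gene most like each of 9 of the 10 genes by Pearson's r is given as a description. It was Slc45a2, a melanosomal transporter gene, for Tyr (0.991), Foxd3, a neural crest factor gene, for Sox10 (0.968), Myo7a for Ednrb (0.994), Tyrp1 for Dct (0.939) and Pmel (0.959), and Abca8a for Tyrp1 (0.968). Genes also found outside melanocytes had less similar partners, Rnf144a for Kit (0.862), Fmn1 for Mitf (0.759) and Bnc1, a basal keratinocyte factor gene, for Kitl (0.617).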
